A study of Mus musculus with 12 samples.

Results

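Calprotectin and other genes that neutrophils are known for were followed in 12 libraries of RNA pulled down with ribosomes from mouse myenteric plexus, the nerve layer in the colon wall, dissected from distal colon. The 8 genes, of 24394 gene symbols with an annotated locus in the deposited table, were chosen by name: S100a8, S100a9, Retnlg, Wfdc17, Mmp9, Il1b, Csf3r and Cxcr2. Each was read from the locus of that name that holds an Ensembl transcript, and the rule used no measured value. Positions are those of GENCODE M21 on GRCm38. All 8 were found, and 6 reached 1 FPKM in at least 3 libraries, the filter for the tests across genes. Csf3r and Cxcr2 did not.

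The mice were C57BL/6 and carried Sox10::CreERT2+/- and Rpl22tm1.1Psam/J in every group: a tamoxifen-dependent Cre under Sox10, a transcription factor gene of glia, exchanges a ribosomal protein for a tagged form by which ribosomes are pulled down. All animals ate chow with 400 mg/kg tamoxifen for 2 weeks and plain chow for 1 week. The 4 groups held 3 libraries each. DNBS_GR159897 mice had a 0.1 mL enema with 5 mg of DNBS (dinitrobenzene sulfonic acid, a hapten that causes colitis) in 50% ethanol, and injections in 0.1% DMSO of 0.5 mg/kg GR159897, which blocks the tachykinin receptor NK2. DNBS_Vehicle mice had the same enema and 0.1% DMSO alone. Saline_GR159897 mice had a saline enema and the antagonist, and Saline_Vehicle mice a saline enema and 0.1% DMSO. Injections were given daily over 3 days from 24 hours before the enema, and tissue was taken 48 hours after it. No ethanol is listed for the saline enema, so DNBS and ethanol cannot be told apart. Ages are not given in the labels, and 7 libraries were from males and 5 from females: 2 females and 1 male in DNBS_GR159897, and 1 female and 2 males in each other group.

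Neutrophils are short-lived white blood cells that leave the blood for inflamed tissue. Their cytoplasm is rich in calprotectin, a heterodimer of the small calcium-binding proteins S100A8 and S100A9 that withholds zinc and manganese from microbes, and faecal calprotectin is a clinical marker of gut inflammation. Granulocyte colony-stimulating factor, whose receptor is encoded by Csf3r, drives their production, and CXC chemokines draw them into tissue through the receptor encoded by Cxcr2. Monocytes and macrophages also make S100a8, S100a9, Il1b, Mmp9 and Wfdc17, so none of these genes alone marks a neutrophil.

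Values are FPKM, mapped fragments scaled to transcript length and to the size of the library, so levels may be compared between genes, and the depth of each library is unknown. The annotated loci held 22.6% to 95.1% of the summed FPKM of a library, and 10325 to 11157 genes reached 1 FPKM. The annotated share was 22.6% to 64.5% in DNBS_GR159897 and 53.8% to 84.0% in DNBS_Vehicle. In Saline_GR159897 it was 75.4% to 95.1%, and in Saline_Vehicle 83.5% to 92.6%. It was thus lower in most DNBS libraries than in any saline library, and its part in the DNBS differences was not tested. The glial gene Sox10 ranged over 1.3 to 6.79 FPKM in DNBS_GR159897 libraries, 9.04 to 184 in DNBS_Vehicle, 141 to 239 in Saline_GR159897 and 15.4 to 248 in Saline_Vehicle. DNBS_GR159897 replicate 1 stood apart: its annotated share was the 22.6%, the glial gene S100b was at 1.17 FPKM against 94.0 to 288 in the other 11 libraries, and the epithelial gene Epcam was at 183 FPKM against at most 4.86. Calls that change without it are named beside the gene. Tbp, a general transcription factor gene, had a listed value of 0 FPKM in replicate 3 of Saline_GR159897, and an entry of 0 therefore need not mean absence. Fewer cells of a type and less RNA per cell cannot be told apart in such bulk libraries, and which cells gave the RNA was not tested. The labels do not say whether a library is 1 animal or a pool, so p-values measure the spread between these libraries, which may be technical.

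Both calprotectin subunits were high in most DNBS libraries and low in most saline libraries. S100a8 (ENSMUSG00000056054, chromosome 3, 90668978 to 90670035, plus strand, GRCm38) was at 65.9, 11.7 and 20.2 FPKM in DNBS_GR159897 replicates 1 to 3 and at 233, 127 and 8.69 FPKM in DNBS_Vehicle replicates 1 to 3. It was at 0.10, 0.07 and 5.59 FPKM in Saline_GR159897 and at 0.12, 0.45 and 0.25 FPKM in Saline_Vehicle. Every DNBS library thus lay above every saline library, the lowest being DNBS_Vehicle replicate 3 and the highest saline library Saline_GR159897 replicate 3. Averaged over both drug arms, S100a8 was higher by 4.72 ± 0.76 (SE) in mean log2(FPKM + 1) in DNBS than in saline libraries (limma, adjusted p = 0.00589, 12 libraries). The adjusted p stayed between 0.00104 and 0.0206 when any library was left out. Permuting the enema labels within each drug arm gave an exact two-sided p of 0.005, the smallest these 400 arrangements allow, which 2.47% of tested genes reached while higher with DNBS.

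S100a9 lies near S100a8 on the opposite strand (ENSMUSG00000056071, chromosome 3, 90692632 to 90695721, minus strand). It was at 141, 27.7 and 13.99 FPKM in DNBS_GR159897 and at 146, 404 and 0.33 FPKM in DNBS_Vehicle. It was at 0.13, 0 and 6.09 FPKM in Saline_GR159897 and at 0.25, 0.17 and 0 FPKM in Saline_Vehicle. DNBS and saline libraries did not overlap within either drug arm, but DNBS_Vehicle replicate 3 was under Saline_GR159897 replicate 3. The difference over both arms was 4.77 ± 1.2 in mean log2(FPKM + 1) (limma, adjusted p = 0.0323; exact permutation p = 0.005). This call was less stable than that of S100a8. The adjusted p was 0.0748 with no filter on low values. Without 1 library at a time it was 0.0652, 0.0613 and 0.0738 for Saline_Vehicle replicates 1 to 3, 0.0695 and 0.0551 for DNBS_Vehicle replicates 1 and 2, 0.0751 and 0.0562 for Saline_GR159897 replicates 1 and 2, and 0.0734 for DNBS_GR159897 replicate 1. It was 0.00167 without DNBS_Vehicle replicate 3.

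**Figure D1:**
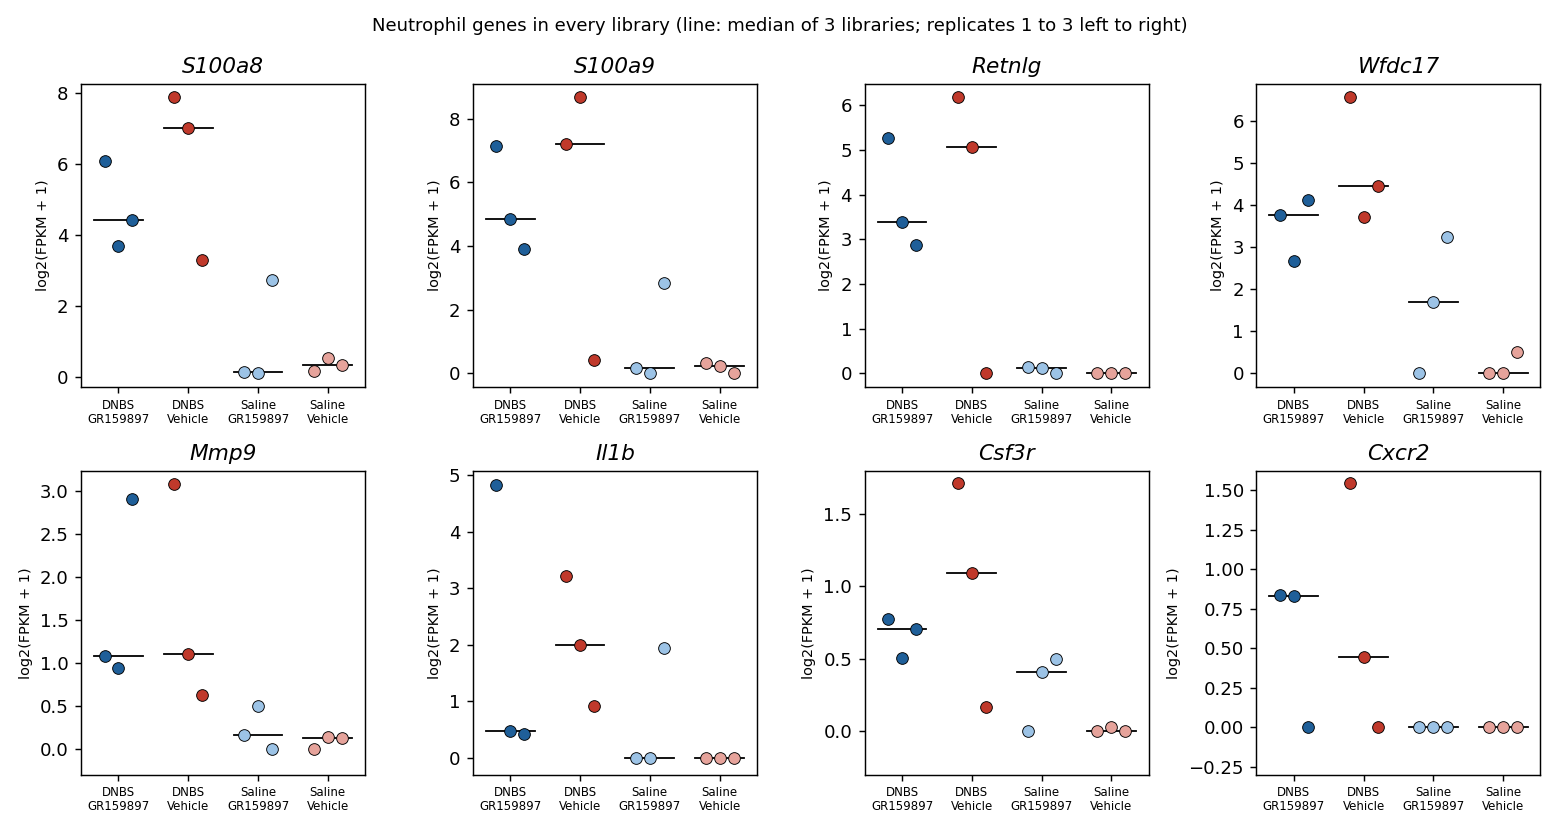
Each panel shows a gene's level in log2(FPKM + 1) on the vertical axis, with a point per library and a line at the median of the 3 libraries of each group on the horizontal axis. S100a8 and Mmp9 lie higher in all 6 DNBS libraries than in any saline library, DNBS_Vehicle replicate 3 (rightmost red point) is the lowest DNBS_Vehicle library for 7 of the genes, and Saline_GR159897 replicate 3 (rightmost light blue point) is the highest saline library for 5.

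The subunits did not keep a fixed ratio. S100a9 over S100a8 was 2.14, 2.36 and 0.692 in DNBS_GR159897 replicates 1 to 3, and 0.628, 3.19 and 0.0380 in DNBS_Vehicle replicates 1 to 3. In Saline_GR159897 replicate 3, the saline library with the highest calprotectin levels, it was 1.09. The DNBS_Vehicle ratios thus reached below and above all of these others. DNBS_Vehicle replicate 3 was the odd library, with S100a8 at 8.69 FPKM and S100a9 at 0.33 FPKM.

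**Figure D2:**
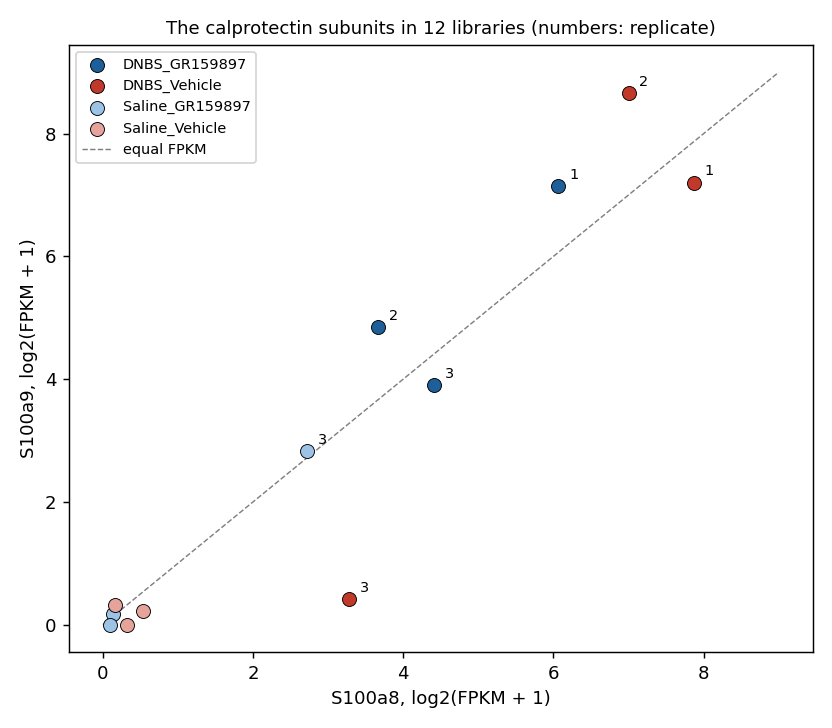
Levels of S100a9 (vertical axis) against S100a8 (horizontal axis), both as log2(FPKM + 1), with a point per library and replicate numbers beside the points that stand away from 0; the dashed line marks equal FPKM. 5 saline libraries lie near the origin, Saline_GR159897 replicate 3 lies on the line, and DNBS_Vehicle replicate 3 lies far under it.

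The sequences just before the start of these genes are given because both genes were called higher with DNBS. They are the 250 bases before the RefSeq start (GRCm38.p6), chr3:90668821-90669070 on the plus strand for S100a8 and chr3:90695722-90695971 on the minus strand for S100a9, written 5′ to 3′ along the gene. The Ensembl start of S100a8 given above lies inside the first window. Capitals mark matches, on either strand, to TATAAA (a core promoter element), GAGGAA (core of PU.1 sites, read as TTCCTC on the other strand) and TTGCNNAA (core of C/EBP sites).
S100a8: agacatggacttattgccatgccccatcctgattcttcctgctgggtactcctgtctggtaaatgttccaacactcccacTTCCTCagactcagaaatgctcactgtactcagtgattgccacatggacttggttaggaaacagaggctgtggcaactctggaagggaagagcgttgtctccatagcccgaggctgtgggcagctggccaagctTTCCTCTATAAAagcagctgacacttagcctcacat
S100a9: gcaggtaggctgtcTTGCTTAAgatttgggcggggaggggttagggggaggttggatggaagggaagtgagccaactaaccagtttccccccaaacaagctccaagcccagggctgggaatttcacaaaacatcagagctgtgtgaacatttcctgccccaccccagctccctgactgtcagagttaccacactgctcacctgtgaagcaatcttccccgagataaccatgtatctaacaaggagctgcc
S100a8 holds TATAAA beginning 30 bases before its start, next to a GAGGAA match beginning 36 bases before it, and another GAGGAA match beginning 170 bases before it. S100a9 holds a TTGCNNAA match beginning 236 bases before its start and neither of the other 2 motifs. Of all 32851 RefSeq promoters of this length, 12.4% hold TATAAA, 23.3% GAGGAA and 9.56% TTGCNNAA, so each match is common, and letters in a window show no binding.

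Among the other secreted products, Retnlg and Wfdc17 were higher with DNBS, and Mmp9 was just short of the threshold. Retnlg (ENSMUSG00000022651, chromosome 16, 48872621 to 48874496, plus strand) encodes resistin-like gamma, a small secreted protein of mouse bone marrow and granulocytes. It was at 37.8, 9.45 and 6.38 FPKM in DNBS_GR159897 and at 71.5, 32.4 and 0 FPKM in DNBS_Vehicle. It was at 0.11, 0.09 and 0 FPKM in Saline_GR159897 and listed at 0 in all 3 Saline_Vehicle libraries. All DNBS libraries but DNBS_Vehicle replicate 3 were above every saline library. The difference over both arms was 3.75 ± 0.86 in mean log2(FPKM + 1) (limma, adjusted p = 0.0247; exact permutation p = 0.02). The adjusted p was 0.0597 with no filter on low values, and 0.0550, 0.0584, 0.0536 and 0.0519 without Saline_Vehicle replicate 1, Saline_Vehicle replicate 3, Saline_GR159897 replicate 1 and DNBS_GR159897 replicate 1, each left out in turn.

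Wfdc17 (ENSMUSG00000069792, chromosome 11, 83703991 to 83706268, plus strand) encodes a secreted protein with a whey acidic protein domain. It was at 12.6, 5.41 and 16.4 FPKM in DNBS_GR159897 and at 93.4, 12.1 and 21.0 FPKM in DNBS_Vehicle. It was at 0, 2.24 and 8.54 FPKM in Saline_GR159897 and at 0, 0 and 0.42 FPKM in Saline_Vehicle. Unlike the calprotectin genes, Wfdc17 was not low in DNBS_Vehicle replicate 3, and in the antagonist arm the enema groups overlapped. The difference over both arms was 3.31 ± 0.57 (limma, adjusted p = 0.00796, and 0.00681 to 0.0277 with any library left out; exact permutation p = 0.01).

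Mmp9 (ENSMUSG00000017737, chromosome 2, 164940780 to 164955850, plus strand) encodes gelatinase B, a matrix metalloprotease stored in neutrophil granules. It was at 1.12, 0.92 and 6.46 FPKM in DNBS_GR159897 and at 7.42, 1.14 and 0.54 FPKM in DNBS_Vehicle. It was at 0.12, 0.41 and 0 FPKM in Saline_GR159897 and at 0, 0.10 and 0.09 FPKM in Saline_Vehicle. Its levels were far lower than those of calprotectin, yet all 6 DNBS libraries lay above all 6 saline libraries, which held for 1.74% of the 12777 genes tested. The difference over both arms was 1.47 ± 0.43 (limma, adjusted p = 0.0502; exact permutation p = 0.005). The adjusted p passed 0.05 with a pseudocount of 0.1 (0.0310), with values scaled to the annotated total (0.0341) or the upper quartile (0.0461), with libraries weighted by quality (0.0145), and without DNBS_Vehicle replicate 3 (0.0380), DNBS_GR159897 replicate 1 (0.0492) or DNBS_GR159897 replicate 2 (0.0451).

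Il1b (ENSMUSG00000027398, chromosome 2, 129364570 to 129371139, minus strand) encodes interleukin-1 beta, a cytokine that is cut from its precursor by caspase-1 and acts on the receptor encoded by Il1r1. It was at 27.5, 0.39 and 0.33 FPKM in DNBS_GR159897 and at 8.30, 2.98 and 0.89 FPKM in DNBS_Vehicle. It was at 0, 0 and 2.84 FPKM in Saline_GR159897 and listed at 0 in all Saline_Vehicle libraries. Its highest value was in DNBS_GR159897 replicate 1, the library that stood apart, and Saline_GR159897 replicate 3 exceeded 3 DNBS libraries. The difference over both arms was 1.65 ± 0.73 and did not pass (limma, adjusted p = 0.163; exact permutation p = 0.085), and without that highest library it was 0.920 (exact permutation p = 0.19). It passed without Saline_GR159897 replicate 3 (exact permutation p = 0.025) and without DNBS_GR159897 replicates 2 or 3 (exact permutation p = 0.04 each). With a pseudocount of 0.1 the exact p was 0.025. Exons of Il1b overlap those of Il1bos, which runs the other way, so reads of that gene may be part of its value. Its promoter, chr2:129371140-129371389 on the minus strand, is given for comparison with S100a8, with TATAAA in capitals.
Il1b: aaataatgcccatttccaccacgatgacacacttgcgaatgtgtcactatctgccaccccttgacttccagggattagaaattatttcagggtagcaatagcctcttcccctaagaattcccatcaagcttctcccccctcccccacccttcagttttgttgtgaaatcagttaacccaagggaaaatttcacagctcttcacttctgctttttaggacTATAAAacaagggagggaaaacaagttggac
TATAAA begins 31 bases before the start, and GAGGAA, TTGCNNAA, the AP-1 core TGANTCA and the NF-kB motif have no match in this window. Of the 7 genes with a RefSeq promoter here, 4 held GAGGAA, 2 each TATAAA, TTGCNNAA and the NF-kB motif, and 0 TGANTCA. Of all promoters, 45.8% hold the NF-kB motif and 6.75% TGANTCA.

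The receptors were near the limit of what the table lists. Csf3r (ENSMUSG00000028859, chromosome 4, 126024550 to 126044440, plus strand) was at 0.71, 0.42 and 0.63 FPKM in DNBS_GR159897 and at 2.27, 1.13 and 0.12 FPKM in DNBS_Vehicle. It was at 0, 0.33 and 0.41 FPKM in Saline_GR159897 and at 0, 0.02 and 0 FPKM in Saline_Vehicle. Enema groups did not overlap within either arm, though in the antagonist arm only just, at a lowest value of 0.42 FPKM in DNBS_GR159897 against a highest of 0.41 FPKM in Saline_GR159897. The mean log2(FPKM + 1) was higher by 0.67 in DNBS libraries (exact permutation p = 0.005, and 0.055 when any 1 of the 3 Saline_Vehicle libraries was left out). In the fit with no filter on low values its adjusted p was 0.177 over both arms, 0.596 in the antagonist arm and 0.451 in the vehicle arm; that fit called 0.634%, 0.0411% and 0.0411% of genes higher.

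Cxcr2 (ENSMUSG00000026180, chromosome 1, 74153989 to 74161246, plus strand) was at 0.79, 0.78 and 0 FPKM in DNBS_GR159897 and at 1.92, 0.36 and 0 FPKM in DNBS_Vehicle, and was listed at 0 in all 6 saline libraries. It was thus above 0 in 4 DNBS libraries and listed at 0 in DNBS_GR159897 replicate 3 and DNBS_Vehicle replicate 3. Its difference did not pass (exact permutation p = 0.08; adjusted p = 0.242 with no filter), except without DNBS_GR159897 replicate 3 or DNBS_Vehicle replicate 3 (exact p = 0.02 each).

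Over both drug arms, 4 of the 6 genes tested across all genes were called higher with DNBS (S100a8, S100a9, Retnlg and Wfdc17) and none lower. Of all 12777 genes, 2.76% were called higher in this contrast and 6.83% lower. Retnlg and Mmp9 reached 1 FPKM in DNBS libraries alone. Among saline libraries, S100a8, S100a9 and Il1b reached it in Saline_GR159897 replicate 3 only, and Wfdc17 in Saline_GR159897 replicates 2 and 3 only. All 6 tested genes thus passed the filter of 3 libraries through the DNBS libraries where they are high. Their share of calls is therefore not a like match for that of all genes. With no filter, 2 of the 8 were called higher (S100a8 and Wfdc17) and none lower, against 0.634% of all genes higher. The difference was positive for 11745 of the 24309 genes in that fit. In the exact test within arms 6 of the 8 genes had p at or under 0.05 (the 4 named, Mmp9 and Csf3r), against 8.22% of filtered genes and 5.66% of all genes with a value that were higher at that p. All 8 differences were positive, also under both rescalings, which shifted the median of all genes in this contrast by 0.149 (annotated total) and 0.171 (upper quartile).

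Within each drug arm alone, 3 libraries against 3 carried fewer calls. In DNBS_GR159897 against Saline_GR159897, no gene of the 8 was called (limma, adjusted p = 0.0841 for S100a8, 0.112 for Retnlg, 0.168 for S100a9, 0.193 for Mmp9, 0.195 for Wfdc17 and 0.481 for Il1b), and 0.383% of all 12778 genes were called higher. The differences in mean log2(FPKM + 1) were 3.73 ± 1.07, 3.76 ± 1.21, 4.30 ± 1.70, 1.42 ± 0.61, 1.87 ± 0.81 and 1.26 ± 1.03 in that order. Without DNBS_Vehicle replicate 3, which enters this comparison only through the shared spread, S100a8 (0.0459), S100a9 (0.0459) and Retnlg (0.0214) passed.

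In DNBS_Vehicle against Saline_Vehicle, S100a8 (5.71 ± 1.07, adjusted p = 0.0497) and Wfdc17 (4.74 ± 0.81, adjusted p = 0.0310) were called higher by limma, against 0.235% of all genes. S100a9 (5.24 ± 1.70, adjusted p = 0.235) and Mmp9 (1.51 ± 0.61, adjusted p = 0.328) were not, nor were Retnlg (adjusted p = 0.234) and Il1b (adjusted p = 0.443), for which no size is given because Saline_Vehicle is listed at 0. The S100a8 call lies at the threshold: it held in 3 of 12 fits that left out a library, without DNBS_Vehicle replicate 3 (0.0104), Saline_GR159897 replicate 3 (0.0428) or DNBS_GR159897 replicate 1 (0.0351), and was lost without each other library (0.0554 to 0.194). The Wfdc17 call was lost without Saline_Vehicle replicates 1, 2 or 3 (0.151, 0.128 and 0.124) and DNBS_Vehicle replicates 1 or 3 (0.114 and 0.0679). Without DNBS_Vehicle replicate 3, S100a9 (0.0126) and Retnlg (0.0104) were called. A pseudocount of 0.1 (0.0676 for both) or no filter (0.142 for S100a8 and 0.106 for Wfdc17) ended both calls, and S100a8 also lost its call under the annotated total (0.0944) and upper quartile (0.0544) scalings, a fixed prior (0.0543) and a fit of these groups alone (0.0738).

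The groups did not overlap, with DNBS higher, for 5 of the 8 genes in the antagonist arm (S100a8, S100a9, Retnlg, Mmp9 and Csf3r), against 6.67% of the 12778 tested genes. In the vehicle arm this held for 6 of the 8 (S100a8, S100a9, Wfdc17, Mmp9, Il1b and Csf3r), against 9.53% of the 12777 tested genes. Csf3r and Cxcr2 are not among the tested genes, and the share with no filter was not computed for these arms. In females alone (3 DNBS and 2 saline libraries) DNBS lay above saline for 6 of the 8, all but Wfdc17 and Il1b, as did 12.4% of tested genes (10.1% with no filter). In males alone (3 DNBS and 4 saline libraries) it did for 5, all but Retnlg, Csf3r and Cxcr2, as did 6.95% of tested genes (4.2% with no filter).

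No difference between antagonist and vehicle passed the threshold for these genes. The group means of FPKM were lower in DNBS_GR159897 than in DNBS_Vehicle for 7 of the 8, all but Il1b. The means of log2(FPKM + 1) gave other exceptions, Retnlg and Mmp9, and the libraries of these groups overlapped for all 8. The share of all genes with a lower mean was not computed, and the share with overlapping libraries is not given here. Neither count can thus be read as particular to these genes. The median difference of all 12778 genes was -0.209 in mean log2(FPKM + 1). Rescaling shifted that median by 0.318 (annotated total) and 0.205 (upper quartile). In DNBS_GR159897 against DNBS_Vehicle, the differences in mean log2(FPKM + 1) were -1.33 for S100a8 (95% interval -3.65 to 0.985, adjusted p = 0.668) and -1.39 for Wfdc17 (-3.14 to 0.362, adjusted p = 0.622) by limma. They were -0.13 for S100a9 (-3.84 to 3.59), 0.10 for Retnlg (-2.55 to 2.75), 0.04 for Mmp9 (-1.28 to 1.36) and -0.14 for Il1b (-2.38 to 2.11), with adjusted p of 0.973 to 0.987. The intervals span both signs, so a p above the threshold does not show that the antagonist left these genes as they were. No gene of 12778 was called in this comparison by limma, 1039 had an unadjusted p under 0.05 (8.13%), and none of the 6 tested genes was among them.

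In Saline_GR159897 against Saline_Vehicle the libraries overlapped for all 8 genes, and 7 had the higher mean with the antagonist. The share of all genes with a higher mean was not computed, and the share with overlapping libraries is not given here. The median difference of all genes was -0.0271. Saline_GR159897 replicate 3 was the highest saline library for S100a8, S100a9, Wfdc17, Il1b and Csf3r. No gene was called (limma, adjusted p = 1 for each tested gene), and 216 of 12777 genes had an unadjusted p under 0.05 (1.69%). No interaction of enema and drug passed for the 6 tested genes. The largest of theirs was that of Wfdc17, at -2.87 ± 1.14 (unadjusted p = 0.0264, adjusted p = 0.957), and that of S100a8 was -1.98 ± 1.51 (adjusted p = 0.957). No gene was called for the interaction, and 457 had an unadjusted p under 0.05 (3.58%). These comparisons share libraries, so their values are not independent of each other.

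**Figure D3:**
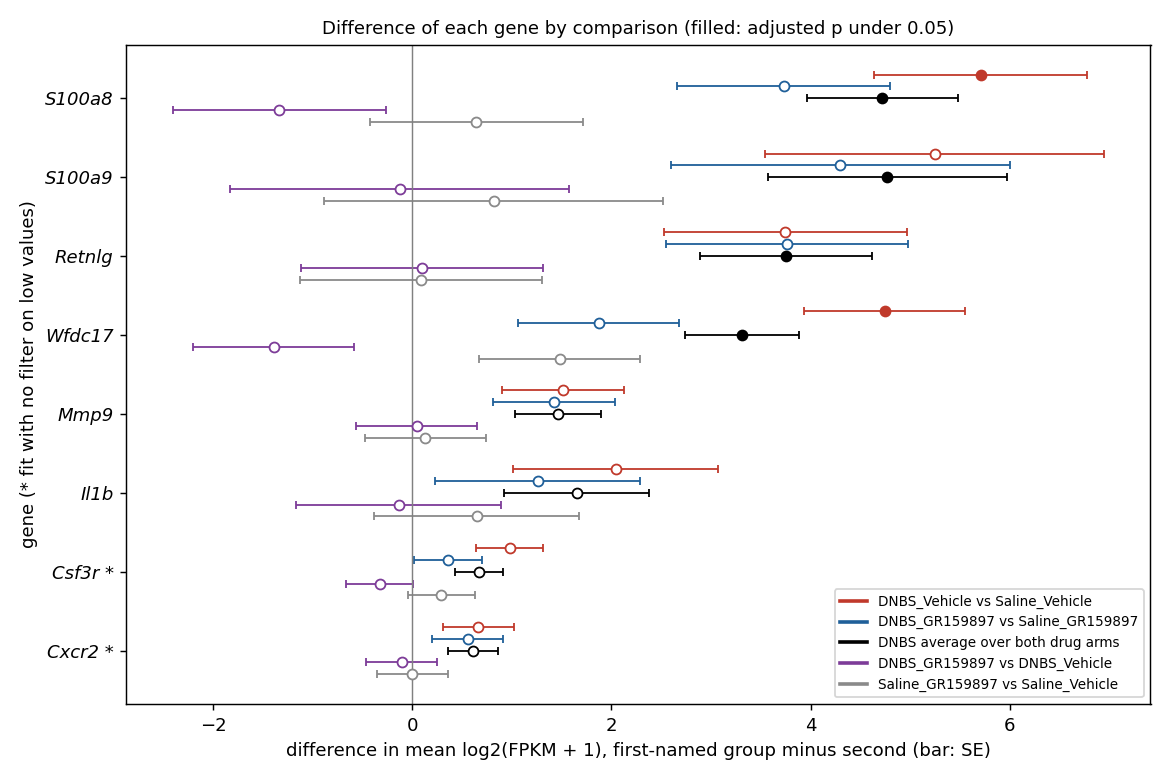
Differences in mean log2(FPKM + 1) for each gene (rows) in 5 comparisons (colours), with bars for the SE and filled points for an adjusted p under 0.05; Csf3r and Cxcr2 come from the fit with no filter. Filled points are the 4 genes called over both drug arms (black) and S100a8 and Wfdc17 in DNBS_Vehicle against Saline_Vehicle (red); the purple and grey points of the antagonist comparisons have bars of up to 1.70 on either side.

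The 8 genes were high in largely the same libraries. Their summed FPKM was 287, 56.8 and 64.4 in DNBS_GR159897 replicates 1 to 3 and 564, 582 and 31.5 in DNBS_Vehicle replicates 1 to 3. It was 0.46, 3.14 and 23.5 in Saline_GR159897 and 0.37, 0.74 and 0.76 in Saline_Vehicle. At 1 FPKM or more, 6, 4 and 5 of the 8 genes were present in the DNBS_GR159897 libraries and 8, 7 and 2 in the DNBS_Vehicle libraries, against 0, 1 and 4 in Saline_GR159897 and 0 in each Saline_Vehicle library. DNBS_Vehicle replicate 1 was the highest library for 6 genes, DNBS_Vehicle replicate 2 for S100a9 and DNBS_GR159897 replicate 1 for Il1b.

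A wider list of 42 other neutrophil genes, of which 38 had an annotated locus and 18 passed the filter, was higher with DNBS only in part. Over both drug arms 6 of the 18 were called higher by limma, against 2.76% of all genes, and 1 lower. They were Lcn2, an iron-sequestering lipocalin (3.13, adjusted p = 0.0159), the decoy interleukin-1 receptor Il1r2 (1.69, 0.0336), the integrin Itgam (1.67, 0.0176), the NADPH oxidase subunits Cybb (1.19, 0.0102) and Ncf4 (1.39, 0.0411), and Acod1, which makes itaconate (1.46, 0.0423). 10 of the 18, and 5 of the 6 called higher (all but Lcn2), reached 1 FPKM in DNBS libraries alone, so they passed the filter through the libraries where they are high. With no filter, 35 of the 38 were higher and 3 lower, against 11745 of 24309 genes higher. In that fit 2 were called higher (Cybb and Itgam), against 0.634% of all genes. Most of these are also made by macrophages, and Lcn2 by epithelium. The gene called lower was Ccrl2, an atypical chemoattractant receptor (-1.996, adjusted p = 0.0367). The calls of Lcn2 and Cybb held whichever library was left out, and that of Itgam in all but 1 of the 12 fits (0.0501 without Saline_GR159897 replicate 1). Il1r2 was not called (0.0563 to 0.0763) without DNBS_Vehicle replicate 1 or any 1 saline library. Of the fits with 1 library left out, Ncf4 was called only without DNBS_Vehicle replicate 2 or DNBS_GR159897 replicates 2 or 3, Acod1 only without DNBS_Vehicle replicate 3 or DNBS_GR159897 replicate 3, and Ccrl2 only without DNBS_Vehicle replicate 2, Saline_GR159897 replicate 2 or DNBS_GR159897 replicate 3. Their adjusted p reached 0.0941, 0.0933 and 0.0935, and was 0.0607, 0.0711 and 0.0654 without DNBS_GR159897 replicate 1. Without that library Fpr2 (1.06, adjusted p = 0.0368) and Ifitm1 (1.55, 0.0356) were called, and in DNBS_Vehicle against Saline_Vehicle Cybb (0.0447) and Il1r2 (0.0351) were. Under the annotated total scaling 4 genes of the list were called higher: Il1r2 (0.0517), Ncf4 (0.0606) and Acod1 (0.0582) were lost and Ifitm1 (0.0234) was gained. Under the upper quartile scaling Ncf4 (0.0509) was lost and Ifitm1 (0.0449) gained.

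Lcn2 was at 11.1, 5.97 and 34.6 FPKM in DNBS_GR159897 and at 138, 24.3 and 15.2 FPKM in DNBS_Vehicle, against 0.91, 1.99 and 17.7 FPKM in Saline_GR159897 libraries and 1.27, 0.14 and 0.36 FPKM in Saline_Vehicle. Like calprotectin, it had its saline maximum in Saline_GR159897 replicate 3. The most abundant gene of the list, G0s2 (a lipolysis inhibitor, 160 FPKM on average over 12 libraries), was at 3.05 to 143 FPKM in DNBS_GR159897, 3.53 to 164 in DNBS_Vehicle, 28.8 to 411 in Saline_GR159897 and 34.6 to 640 in Saline_Vehicle, with a difference of -2.08 (adjusted p = 0.285). Ifitm1, an interferon-induced membrane protein gene and the third most abundant, differed by 1.33 (adjusted p = 0.0674). The ranges of the summed level of the list overlapped, at 107 to 192 FPKM in DNBS_GR159897, 78.7 to 439 in DNBS_Vehicle, 54.5 to 442 in Saline_GR159897 and 58.3 to 675 in Saline_Vehicle. The share of G0s2 in that sum was 2.84% to 74.4% in DNBS_GR159897, 4.48% to 66.1% in DNBS_Vehicle, 37.9% to 92.8% in Saline_GR159897 and 59.4% to 94.9% in Saline_Vehicle.

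Surface and granule genes known from neutrophils differed among themselves, and which of them neutrophils in this tissue transcribe was not tested. Ly6g, the surface marker by which mouse neutrophils are stained, was at 0.37, 0.05 and 0 FPKM in DNBS_GR159897 and 0.91, 9.08 and 0 FPKM in DNBS_Vehicle, and at 0 in Saline_GR159897 and 0, 0 and 1.69 FPKM in Saline_Vehicle. The granule gene Mpo was at most 0.10 FPKM, and Ltf was above 0 in DNBS_GR159897 replicate 1 alone (1.52 FPKM). Camp, a granule antimicrobial gene, was at 1 FPKM or more in 10 libraries, all 6 saline ones among them, with its highest value of 10.7 FPKM in Saline_GR159897 replicate 3. Prtn3, a granule protease gene, was at 0 to 1.14 FPKM in DNBS_GR159897, 0.91 to 3.70 in DNBS_Vehicle, 0.49 to 1.03 in Saline_GR159897 and 0.39 to 1.23 in Saline_Vehicle. The granule gene Ngp was at 3.65, 1.00 and 0 FPKM in DNBS_GR159897 and 12.2, 1.86 and 0 FPKM in DNBS_Vehicle, and at most 0.15 FPKM in saline libraries. Cd177, a neutrophil surface gene, was at 5.44, 0.23 and 0 FPKM in DNBS_GR159897 and 0.74, 0 and 0 FPKM in DNBS_Vehicle, and listed at 0 in all saline libraries. The collagenase gene Mmp8 was at 3.58, 0.37 and 0 FPKM in DNBS_GR159897 and 2.45, 1.55 and 0.36 FPKM in DNBS_Vehicle, against 0, 0 and 0.07 FPKM in Saline_GR159897 and 0 in Saline_Vehicle. Of the 38 genes, 35, 33 and 20 were above 0 in DNBS_GR159897 and 35, 27 and 25 in DNBS_Vehicle, against 11, 17 and 16 in Saline_GR159897 and 13, 13 and 18 in Saline_Vehicle. The share of all symbols above 0 was 61.8% to 74.0% per library. 9 of the 38 (23.7%) were listed at 0 in all saline libraries and above 0 in some DNBS library, against 10.7% of all symbols.

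**Figure D4:**
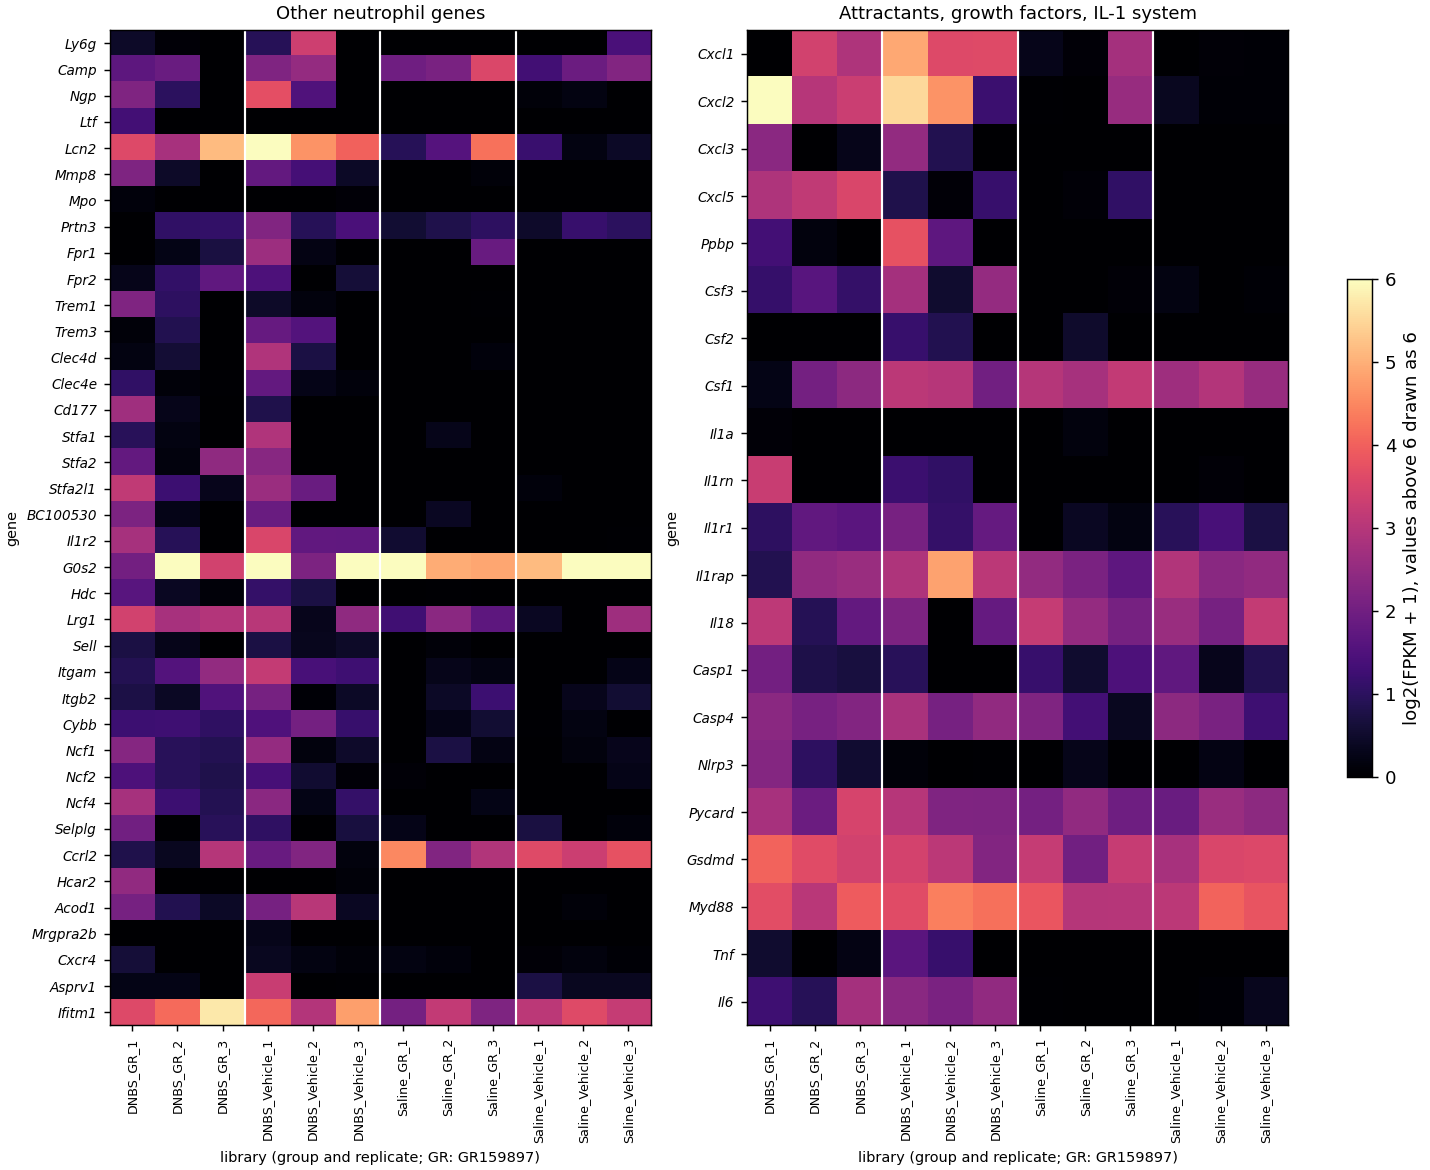
Levels of the 38 other neutrophil genes (left) and of 21 genes for attractants, growth factors and the interleukin-1 system (right), as log2(FPKM + 1) in colour, with a column per library and white lines between groups. DNBS_GR159897 replicate 1 and DNBS_Vehicle replicate 1 show the most neutrophil genes above 0, 35 of 38 each, and Cxcl2 and Il6 are brighter in DNBS than in Saline_Vehicle columns.

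Of 22 genes for neutrophil attractants, growth factors and the interleukin-1 system, 21 had an annotated locus and 16 were tested. Over both drug arms 6 were called higher by limma, against 2.76% of all genes, and none lower. They were the CXCR2 ligand genes Cxcl1 (2.53, adjusted p = 0.0251), Cxcl2 (3.47, 0.0239) and Cxcl5 (1.74, 0.00463), Csf3, which encodes granulocyte colony-stimulating factor (1.56, 0.0189), the interleukin-1 receptor Il1r1 (0.96, 0.0326) and the cytokine Il6 (1.91, 0.00437). Of the 16, 4 reached 1 FPKM in DNBS libraries alone (Ppbp, Csf3, Il1rn and Il6). Among saline libraries, Cxcl1, Cxcl2 and Cxcl5 reached it in Saline_GR159897 replicate 3 only, and Il1r1 in Saline_Vehicle replicate 2 only. All 6 genes called higher thus passed the filter through the DNBS libraries where they are high. With no filter 17 of 21 were higher and 4 lower, and 3 were called higher (Csf3, Cxcl5 and Il6), against 0.634% of all genes. In that fit 11745 of 24309 genes were higher. The calls of Csf3, Cxcl5 and Il6 held whichever library was left out. That of Cxcl2 was lost without Saline_Vehicle replicate 3 (0.0594) or Saline_GR159897 replicate 1 (0.0589), and that of Cxcl1 also without Saline_Vehicle replicate 1 or DNBS_Vehicle replicate 1 (0.0566 to 0.0715). Il1r1 was lost (0.0583 to 0.0884) without Saline_Vehicle replicates 1 or 3, DNBS_Vehicle replicates 1 or 3, Saline_GR159897 replicates 1 or 3 or DNBS_GR159897 replicate 2.

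Cxcl2, the most abundant of them, was at 73.4, 7.06 and 8.79 FPKM in DNBS_GR159897 and 45.1, 24.0 and 1.29 FPKM in DNBS_Vehicle. It was at 0.03, 0 and 4.90 FPKM in Saline_GR159897 libraries and 0.29, 0.04 and 0.04 FPKM in Saline_Vehicle. Its low DNBS library and its high saline library were those of S100a8. Cxcl1 was instead listed at 0 in DNBS_GR159897 replicate 1, and was at 9.67 and 6.45 FPKM in the other DNBS_GR159897 libraries and 29.0, 11.2 and 11.3 FPKM in DNBS_Vehicle. Cxcl5 was called in DNBS_GR159897 against Saline_GR159897 (2.80, adjusted p = 0.0152, and 0.0716 without Saline_GR159897 replicate 1). It was at 6.42, 7.83 and 10.5 FPKM in DNBS_GR159897, against 0.75, 0.05 and 1.25 FPKM in DNBS_Vehicle, a difference that did not pass (2.5, adjusted p = 0.122) except under the annotated total scaling (2.92, adjusted p = 0.0265). Il6 was called in DNBS_Vehicle against Saline_Vehicle (2.20, adjusted p = 0.0458). With 1 library left out, that call held in 3 of 12 fits, those without a DNBS_GR159897 library, and its adjusted p reached 0.195 in the others. Without DNBS_GR159897 replicate 1, Cxcl1 was called there as well (adjusted p = 0.0154). Myd88, an adaptor of interleukin-1 signalling, and Gsdmd, a pore-forming protein, were the next most abundant genes of the list. They did not pass over both arms (0.35 and 0.25, limma, adjusted p = 0.486 and 0.656). Myd88 overlapped between all groups. Gsdmd was at 9.63 to 15.4 FPKM in DNBS_GR159897, above its 3.02 to 8.44 FPKM in Saline_GR159897, as 6.67% of tested genes were. It overlapped between all other groups.

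Other members of the families did not share the pattern as a whole. Of 12 tested genes of the S100 family and of calprotectin receptors, listed together with Cd68, 1 was called over both arms, the macrophage gene Cd68 (1.25, adjusted p = 0.0142). Of all genes, 2.76% were called higher and 6.83% lower in this contrast. The abundant S100a6 was at 863 to 2144 FPKM in DNBS_GR159897, 1475 to 1848 in DNBS_Vehicle, 600 to 1113 in Saline_GR159897 and 773 to 917 in Saline_Vehicle (0.85, adjusted p = 0.211). S100a6 passed under the annotated total scaling (0.0483) and without DNBS_GR159897 replicate 1 (0.0240). Of 7 tested resistin-like and whey acidic protein genes, Wfdc21 was called higher (4.15, adjusted p = 0.0094) and Retnla, the resistin-like gene of alternatively activated macrophages, lower (-2.29, adjusted p = 0.0378), a call lost under the upper quartile scaling (0.0678) and in 9 of the 12 fits with 1 library left out (0.0724 without DNBS_GR159897 replicate 1). It held without DNBS_Vehicle replicate 1, Saline_GR159897 replicate 1 or DNBS_GR159897 replicate 2.

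Markers of other cells differed in the same contrast. Of 14 tested macrophage and monocyte genes 5 were called higher over both arms (limma), against 2.76% of all genes. They were Cd68, Mrc1 (1.28, adjusted p = 0.0146), C1qc (1.51, 0.0293), the monocyte receptor Ccr2 (1.19, 0.0102) and Fcgr1 (1.34, 0.0458). 3 of the 14 reached 1 FPKM in DNBS libraries alone, Ccr2 among them. Among saline libraries, Mrc1 reached it in Saline_GR159897 replicate 2 only and Fcgr1 in Saline_Vehicle replicate 2 only. Ccr2, Mrc1 and Fcgr1 thus passed the filter through the DNBS libraries where they are high. With no filter 15 of 16 were higher, as were 11745 of all 24309 genes, and 3 were called (Cd68, Mrc1 and Ccr2), against 0.634% of all genes. Those 3 calls held whichever library was left out, that of C1qc in 6 and that of Fcgr1 in 3 of 12 fits, with an adjusted p of up to 0.0803 and 0.107. In DNBS_GR159897 against Saline_GR159897 Ccr2 was called (1.51, adjusted p = 0.0394), a call that held in 2 of 12 fits with 1 library left out, those without DNBS_Vehicle replicate 2 or DNBS_GR159897 replicate 3 (0.0585 without DNBS_GR159897 replicate 1). In DNBS_Vehicle against Saline_Vehicle Cd68 was called (2.03, adjusted p = 0.0343), a call lost under the annotated total scaling (0.0857) and without any 1 library of those groups or Saline_GR159897 replicate 2 (0.0564 to 0.154). The summed level of that list was 50.6 to 205 FPKM in DNBS_GR159897, 61.4 to 309 in DNBS_Vehicle, 48.2 to 59.9 in Saline_GR159897 and 75.1 to 119 in Saline_Vehicle. None of 10 lymphocyte genes passed the filter. The glial genes Sox10 (-2.98, adjusted p = 0.0374), Erbb3 (-1.18, 0.0388) and Ednrb (-1.85, 0.0441) were called lower over both arms, and Sox10 also in DNBS_GR159897 against Saline_GR159897 (-5.41, adjusted p = 0.0395); under each rescaling 1 glial gene was called lower over both arms, Sox10, and none in that arm. Without DNBS_GR159897 replicate 1 Sox10 (0.0854 over both arms and 0.118 in that arm) and Ednrb (0.0726) were not called, and Erbb3 (0.0411) was, as was Etv1, a transcription factor gene of interstitial cells of Cajal (-0.90, adjusted p = 0.0335). Leaving out any 1 library ended the Sox10 calls in 7 of 12 fits each, the Ednrb call in 9 and the Erbb3 call in 8. The summed epithelial list was 14.6 to 1527 FPKM in DNBS_GR159897, 0.55 to 75.7 in DNBS_Vehicle, 5.91 to 10.2 in Saline_GR159897 and 5.36 to 53.4 in Saline_Vehicle. The part of these cell types in the levels of the 8 genes was not tested.

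The genes most like the 8 in their levels over the 12 libraries were looked for by Pearson r of log2(FPKM + 1), as a description, since all points share the same libraries and the same 2 enemas. With the mean of the 6 tested genes, r was 0.995 for Wfdc21, 0.976 for Cxcl2, 0.944 for the merged locus Fyb;Gm7666, 0.928 for Mefv (pyrin, an inflammasome protein of granulocytes and monocytes) and 0.922 for the leukocyte surface gene Cd52. With S100a8 alone it was 0.990 for Wfdc21, 0.952 for Cxcl2 and 0.947 for Spp1 (osteopontin). Wfdc21 was at 52.3, 7.76 and 17.8 FPKM in DNBS_GR159897 and 101, 43.3 and 3.57 FPKM in DNBS_Vehicle, against 0, 0 and 4.80 FPKM in Saline_GR159897 and 0 in Saline_Vehicle, the same high and low libraries as S100a8. With Il1b the nearest were the neutrophil collagenase gene Mmp8 (0.924), Cep85 (0.924) and Frrs1 (0.912). Cep85 was at 63.9 FPKM in DNBS_GR159897 replicate 1, the Il1b maximum, and at most 20.4 FPKM elsewhere.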

How the data were processed

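Tagged ribosomes were pulled down from dissected myenteric plexus, and libraries were made from 1 ng of RNA with SMART-seq v4 and Nextera and sequenced as pairs, per the labels' protocols. StringTie 1.3, HISAT2 2.0, FastQC 0.10.1 and cutadapt 1.10 are named, per the submitters' processing notes. Which build was aligned to is not stated there. The deposited values are FPKM per assembled locus, with 2 decimals, as the authors computed them, so depth is unknown and no counts were used. Of 99547 loci, 24432 held an annotated transcript, and 38 duplicates of a symbol with a lower mean were left out. All value columns were matched to a sample by name.

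Differences were tested on log2(FPKM + 1) without rescaling, with limma 3.58.1 (R 4.3.3), group means over all 12 libraries, trended and robust prior, genes at 1 FPKM or more in at least 3 libraries, two-sided, and Benjamini-Hochberg adjustment over all genes with a threshold of 0.05. A difference understates the change of low genes. The DNBS contrast over both drug arms is the mean of the DNBS differences with and without GR159897. Single genes were also tested by permuting enema labels within each drug arm (400 arrangements, smallest p 0.005), since 3 against 3 libraries cannot go below 0.1. The code was tested on simulated data. Alternatives were another pseudocount, other filters, rescaling, sex, the replicate number, library weights, summed loci, another prior, the groups of a comparison alone and each library left out. Alternatives for the gene lists (each library left out, rescaling, no filter) were added after the data were seen.

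Gene positions come from GENCODE M21 (GRCm38) and promoters from RefSeq (GRCm38.p6), where 7 of the 8 genes matched. Named genes are the 8, list genes called in any comparison, the 3 most abundant genes of the neutrophil and attractant lists, and the nearest genes by r, with predicted genes left out. Ly6g, Mpo, Ltf, Camp, Prtn3, Ngp, Cd177, Fpr2, S100a6, Etv1 and the Cxcl5 comparison of the DNBS groups were picked after their values were seen. The 8 genes and all lists were chosen with earlier results of these data known. Python 3.11.15 with pandas 2.3.3, numpy 2.4.6, scipy 1.17.1 and matplotlib 3.10.9 was used.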

Additional observations from a re-analysis of the deposited data

Results flagged for a closer look

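The deposited table holds 8 further assembled loci that carry the name of one of the 8 genes but no annotated transcript, and none of the comparisons uses them. 7 of them were listed at 0 in all saline libraries and were above 0 in some DNBS library, as were 10.7% of all annotated symbols. The share among all loci without an annotated transcript was not computed, so the count cannot be read as particular to these genes. For S100a8 such a locus reached 3.50 FPKM in DNBS_GR159897 replicate 1. For Wfdc17 it reached 1.78 FPKM in DNBS_GR159897 replicate 2. For Retnlg it reached 3.52 FPKM in DNBS_Vehicle replicate 2. Csf3r had 5 such loci, with maxima of 2.12, 2.10 and 1.64 FPKM in DNBS_Vehicle replicate 1, 1.21 FPKM in DNBS_GR159897 replicate 2 and 1.37 FPKM in DNBS_Vehicle replicate 3. The last of these was also at up to 0.79 FPKM in saline libraries.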

How the results depend on the processing

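Depth is unknown, and genes near 0 such as Csf3r and Cxcr2 are at the limit of these values. Called genes over both drug arms numbered 1226, against 442 with no filter, 805 with a sex term, 3009 with library weights and 397 to 1655 with a library left out. DNBS_GR159897 against Saline_GR159897 gave 176, against 42 with a pseudocount of 0.1, 18 with no filter, 91 (annotated total), 93 (upper quartile), 25 (sex), 31 (replicate block), 2154 (weights), 9 (these groups alone) and 4 to 604 with a library left out. DNBS_Vehicle against Saline_Vehicle gave 41, against 21 (pseudocount), 13 (no filter), 24 (sex), 18 (replicate block), 514 (weights), 110 (these groups alone) and 0 to 176. DNBS_GR159897 against DNBS_Vehicle gave 0, against 2 (pseudocount), 3 (annotated total), 69 (weights) and 0 to 6. Saline_GR159897 against Saline_Vehicle gave 0, against 1 (pseudocount and both scalings), 5 (weights) and 0 to 3. The interaction gave 0, against 2 (pseudocount), 1 (filter of 2 FPKM, annotated total), 5 (weights) and 0 to 2. The causes were not tested.

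The exact test of Il1b gave 3.71 (p = 0.025) with a pseudocount of 0.1, and 0.920 to 2.02 with a library left out; Csf3r ranged over 0.488 to 0.875 and Cxcr2 over 0.390 to 0.776. Signs turned only for differences that did not pass. In DNBS_GR159897 against DNBS_Vehicle S100a9 became 0.37 (pseudocount), 0.30 and 0.21 (scalings), Il1b 0.29 and 0.11, Retnlg -0.31 (sex) and -0.76 (weights), and Mmp9 -0.91 (weights). The interaction became 0.19 and 0.0694 for Mmp9 under the scalings, and -0.40 (sex) and -0.82 (weights) for Retnlg. Il1b in DNBS_GR159897 against Saline_GR159897 became -0.46 (weights). With a library left out, DNBS_GR159897 against DNBS_Vehicle ranged over -2.63 to 1.49 for S100a9, -1.60 to 0.61 for Il1b, -0.59 to 0.78 for Mmp9 and -1.77 to 1.32 for Retnlg. Il1b in DNBS_GR159897 against Saline_GR159897 ranged over -0.20 to 2.01. The interaction ranged over -0.72 to 0.65 (Mmp9), -3.45 to 0.67 (S100a9) and -1.86 to 1.23 (Retnlg). Saline_GR159897 against Saline_Vehicle ranged over -0.22 to 1.09 (S100a8), -0.0947 to 1.32 (S100a9) and -0.0055 to 0.24 (Mmp9).

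Same-numbered libraries deviated together little (r of -0.088 to 0.202 over 18 pairs, 2 above 0.1). Such r values cannot exclude that libraries of the same number shared a batch, which was not tested. With the replicate block the adjusted p in DNBS_Vehicle against Saline_Vehicle was 0.0938 for S100a8 and 0.0701 for Wfdc17 (limma).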
